A study of Mus musculus with 6 samples.

Results

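Sox factors are DNA-binding proteins that share a high mobility group box, and 8 of them that act in skeletal cells were read from the 23364 gene symbols of an RNA-seq table. They were chosen by symbol: Sox8 and Sox9 of the SoxE group, Sox5, Sox6 and Sox13 of the SoxD group, and Sox4, Sox11 and Sox12 of the SoxC group. Levels are in RPKM (reads per kilobase of transcript, corrected for how deeply a library was sequenced), summed over the 12 listed transcripts of these genes, of which Sox5 and Sox6 have 3 each. There were 3 libraries of osteoblasts, released from newborn calvaria (the skull roof) with Liberase, sorted for green fluorescent protein and labelled Sp7 positive. They were set against 3 libraries of wild-type chondrocytes, released from newborn rib cartilage with Pronase and Collagenase D and not labelled as sorted. All mice were C57BL/6 at postnatal day 1. The labels tie the fluorescent protein to Sp7 but do not describe the construct, nor do they say whether replicates came from separate animals, so p-values measure the spread between libraries only. Cell type, site, sorting, genotype and enzyme all go with the group and cannot be told apart.

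Sox9 is the factor without which cartilage does not form in the mouse, and it binds enhancers of Col2a1, Acan and other matrix genes together with Sox5 and Sox6. SoxD proteins have no known activation domain and act through their coiled-coil, pairing with one another on DNA. SoxC proteins are activators with wide expression in embryonic mesenchymal and neural progenitors, and mouse limb mesenchyme that lacks them forms defective growth plates.

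The cell type labels were checked against defining markers. Summed over Sp7, Bglap, Ibsp, Alpl, Dmp1, Phex and Col1a1, RPKM was 20495 to 22267 in osteoblast libraries and 2268 to 7770 in chondrocyte libraries, where Col1a1 made up nearly all of it. Summed over Col2a1, Acan, Comp, Col9a1, Matn1 and Hapln1, it was 69.6 to 82.7 in osteoblasts and 30521 to 53783 in chondrocytes. Chondrocyte replicate 3 stood apart with the most Col1a1 (7765 RPKM) and the most tendon and fibrous tissue RNA, 3039 RPKM over 6 markers against 1033 and 871 in replicates 1 and 2. In osteoblast libraries that sum was 600 to 1046 RPKM. Myeloid markers summed to 13.9 to 17.7 RPKM in osteoblast libraries and 1.21 to 6.44 RPKM in chondrocyte libraries, endothelial markers to 0.604 to 2.45 and 2.44 to 5.53 RPKM, erythroid markers to 28.9 to 64.2 and 5.35 to 28.9 RPKM. Schwann and glial markers summed to 4.43 to 4.88 RPKM in osteoblast libraries and 37.3 to 54.6 RPKM in chondrocyte libraries, nearly all of the chondrocyte sum being S100b, a gene that chondrocytes also express. Lymphoid markers stayed at 0.426 RPKM or less in every library and skeletal muscle markers at 0.715 or less, with Cd3e and Ckm at the floor throughout. The low values of the table move in steps, from which the depth of each library was estimated. At that depth 1 RPKM in a transcript of 2 kb stands for 54.0 to 71.8 reads.

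The 8 genes fell into 3 patterns. Sox9, Sox5, Sox8, Sox6 and Sox13 were lower in osteoblasts, Sox4 and Sox12 were higher, and Sox11 did not pass the test. The test was limma on log2(RPKM + 1), with Benjamini-Hochberg adjusted p under 0.05 over the 11218 genes that reached 1 RPKM in at least 3 of 6 libraries. So 5 of 8 were called lower in osteoblasts, against 13.5% of all tested genes, and 2 of 8 were called higher, against 55.5%. In either direction 7 of 8 were called, against 69.0% of all tested genes. All genes leaned towards osteoblasts, with a median log2 difference of 0.43. Scaling the libraries by the median of ratios brought that median to 0.01, with 3413 of all tested genes called higher and 3471 lower in place of 6224 and 1512, and 1 Sox gene higher and 6 lower. Each log2 difference is therefore also given relative to the median of all tested genes. All 8 passed the filter on low values, but Sox5 and Sox13 reached 1 RPKM in chondrocyte libraries alone, which builds in their direction. The groups did not overlap for 7 of the 8, as for 75.6% of tested genes. In bulk RNA, fewer cells that express a gene and less RNA per cell cannot be told apart.

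**Figure D1:**
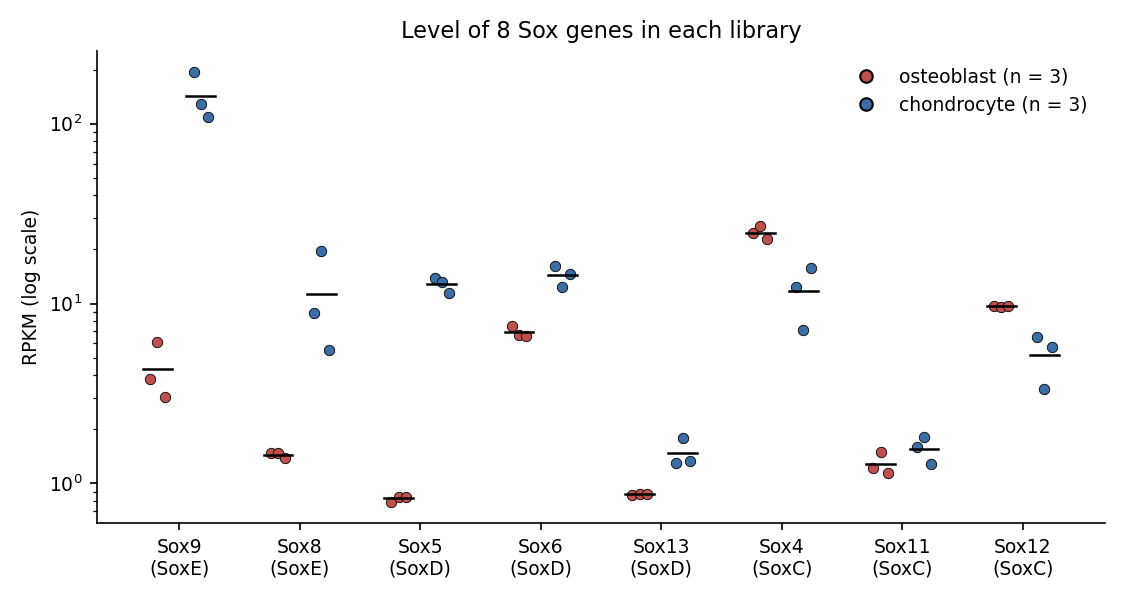
RPKM of each Sox gene in every library on a log axis, osteoblasts in red and chondrocytes in blue, with a line at the mean of 3 libraries. Sox9 spans the widest gap, at 4.31 against 143 RPKM, Sox4 and Sox12 stand higher in osteoblasts, and the points of Sox11 overlap.

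Sox9, the central activator of cartilage genes, had 3.80, 6.12 and 3.02 RPKM in osteoblast replicates 1 to 3 and 193, 128 and 109 RPKM in chondrocyte replicates 1 to 3. Every osteoblast library was far under every chondrocyte library. Osteoblasts averaged 4.31 ± 1.61 RPKM of Sox9 and chondrocytes 143 ± 44.4 RPKM (SD, n = 3 each), a level 33.2-fold lower in osteoblasts. Its log2 difference, osteoblast minus chondrocyte, was -4.76 ± 0.27 (SE; limma, adjusted p = 1.12e-05), or -5.20 relative to the median, and 0.259% of tested genes had a lower difference. By level, Sox9 ranked 7780 among the 11218 tested genes in osteoblasts and 227 in chondrocytes. An estimated 337 to 851 reads stood behind the osteoblast values. Osteoblasts held 0.0301 times the Sox9 level of chondrocytes, while the sum of the 6 chondrocyte markers, most of it Col2a1, stood at 0.00178 times its chondrocyte level. The single markers ranged from 0.000824 times for Col2a1 to 0.0266 times for Hapln1 and 0.0453 times for Acan. The Sox9 ratio lay within their range, with Acan alone above it. Osteoblast replicate 2, the highest of its group for Sox9, was also the highest for the marker sum, at 82.7 RPKM against 72.9 and 69.6. Singly, Col2a1 and Comp were highest in that library, and Hapln1 was nearly level between replicates 1 and 2. Acan was highest in osteoblast replicate 1 (34.8 RPKM), and Col9a1 and Matn1 in replicate 3 (6.75 and 0.0740 RPKM). The part of these markers in the Sox9 value was not tested.

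Sox8, the close relative of Sox9 in the SoxE group, had 1.47, 1.48 and 1.38 RPKM in osteoblasts and 8.91, 19.5 and 5.51 RPKM in chondrocytes. The osteoblast libraries were nearly level, while chondrocyte replicate 2 stood well above the other two. The log2 difference was -2.17 ± 0.37 (SE; limma, adjusted p = 0.00157), or -2.60 relative to the median, and without chondrocyte replicate 2 it was -1.72. Foxa2, a forkhead factor of late chondrocytes, shared the high value of that library, at 10.002 RPKM against 2.43 and 1.83. So did Matn1, a cartilage matrix protein, at 46.6 against 3.12 and 3.10 RPKM. Foxa3, another forkhead factor, did not, at 7.04, 6.20 and 4.84 RPKM in chondrocyte replicates 1 to 3. All chondrocyte markers but Comp were highest in chondrocyte replicate 2, and Comp was lowest there (1920, 1606 and 1642 RPKM). Within the SoxE group Sox9 exceeded Sox8 by ratios of 2.59, 4.13 and 2.19 in osteoblast libraries and 21.7, 6.57 and 19.7 in chondrocyte libraries. Part of the Sox8 transcript, 329 bases in GENCODE M21, lies opposite the listed transcript 2810468N07Rik. Strand is not stated for the counting, so reads from the shared stretch cannot be told apart. The opposite transcript had 1.35, 1.14 and 0.987 RPKM in osteoblasts and 1.498, 1.72 and 0.990 RPKM in chondrocytes, with groups that overlapped.

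Sox5, a SoxD partner of Sox9, had 0.791, 0.839 and 0.844 RPKM in osteoblasts and 13.9, 13.2 and 11.4 RPKM in chondrocytes. Replicates lay close together in both cell types, with no overlap. Osteoblasts averaged 0.825 ± 0.0296 RPKM of Sox5 and chondrocytes 12.8 ± 1.28 RPKM (SD, n = 3 each), a level 15.6-fold lower in osteoblasts. The log2 difference was -2.92 ± 0.11 (SE; limma, adjusted p = 1.45e-06), or -3.35 relative to the median. Sox6, with which Sox5 overlaps in function in mouse cartilage, behaved less sharply: it had 7.51, 6.68 and 6.63 RPKM in osteoblasts and 16.2, 12.4 and 14.5 RPKM in chondrocytes. It was 2.07-fold lower in osteoblasts (log2 difference -0.95 ± 0.12 SE; limma, adjusted p = 0.000344), or -1.38 relative to the median. The ratio of Sox6 to Sox5 RPKM was therefore 9.49, 7.96 and 7.86 in osteoblast libraries and 1.17, 0.939 and 1.27 in chondrocyte libraries. In chondrocytes the pair stood at like levels, whereas in osteoblasts Sox6 was the main SoxD transcript.

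Sox13, the third SoxD gene, was low in both cell types. It had 0.865, 0.873 and 0.870 RPKM in osteoblasts and 1.30, 1.80 and 1.32 RPKM in chondrocytes, with no overlap but a gap smaller than 0.5 RPKM between the nearest libraries. The log2 difference was -0.40 ± 0.11 (SE; limma, adjusted p = 0.0124), or -0.83 relative to the median. An estimated 86.6 to 111 reads stood behind the osteoblast values and 161 to 223 behind the chondrocyte values.

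Sox5 and Sox6 were also read by transcript. Of the 12 transcripts of the 8 genes, 11 were tested, and 8 were called lower and 2 higher in osteoblasts. Of all 13162 transcripts tested, 13.1% were called lower, 52.2% higher and 65.3% in either direction. The Sox5 transcripts NM_001243163 and NM_011444 were both lower in osteoblasts, at 0.436, 0.188 and 0.260 against 6.20, 7.63 and 5.24 RPKM and at 0.305, 0.647 and 0.478 against 7.41, 5.17 and 5.63 RPKM. Their log2 differences were -2.50 ± 0.15 and -2.25 ± 0.16 (SE; limma, adjusted p = 1.36e-05 and 2.38e-05). Both of these and the Sox13 transcript are among the 8 called lower. They reached 1 RPKM in chondrocyte libraries alone, which builds in their direction. NM_001113559 was rare, at 0.0494, 0.00481 and 0.106 RPKM in osteoblasts and 0.290, 0.374 and 0.538 RPKM in chondrocytes, and did not pass the filter. In GENCODE M21 the 3 Sox5 transcripts start within 106 bases of one another. They differ in coding length (2037, 2289 and 2145 bases in the order named) and in the last exon (1953, 5143 and 598 bases). The sources used here do not say how reads were divided between them. In each of the 3, 69 bases lie opposite the gene Sox5os1, from which reads cannot be told apart without strand.

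The Sox6 transcripts start at 3 separate sites that span 43658 bases, and they share a last exon of 5878 bases. All 3 were lower in osteoblasts. NM_001025559 had 4.11, 3.60 and 3.03 RPKM in osteoblasts and 10.4, 7.36 and 7.90 RPKM in chondrocytes (log2 difference -1.05 ± 0.15 SE; limma, adjusted p = 0.000686). NM_011445 had 1.84, 2.16 and 2.32 RPKM in osteoblasts and 3.95, 3.38 and 4.10 RPKM in chondrocytes (-0.63 ± 0.12 SE; limma, adjusted p = 0.00271). NM_001025560 had 1.55, 0.924 and 1.28 RPKM in osteoblasts and 1.91, 1.62 and 2.51 RPKM in chondrocytes (-0.42 ± 0.16 SE; limma, adjusted p = 0.0494). That last call ended without osteoblast replicate 2 or 3 (limma, adjusted p 0.169 and 0.1) and without chondrocyte replicate 1 or 3 (0.0880 and 0.138). It also ended with a pseudocount of 0.1 (0.0574) and with no filter on low values (0.08).

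NM_001025559 took 54.8%, 53.9% and 45.7% of Sox6 RPKM in osteoblast libraries and 63.9%, 59.5% and 54.4% in chondrocyte libraries. NM_011445 took 24.5%, 32.3% and 35.0% in osteoblast libraries and 24.3%, 27.4% and 28.3% in chondrocyte libraries, and NM_001025560 took 20.7%, 13.8% and 19.3% and 11.8%, 13.1% and 17.3%. The ranges of the osteoblast and chondrocyte libraries overlapped for each share, in Sox5 as in Sox6, by less than 0.5 percentage points for NM_001025559, and the shares were not tested.

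**Figure D2:**
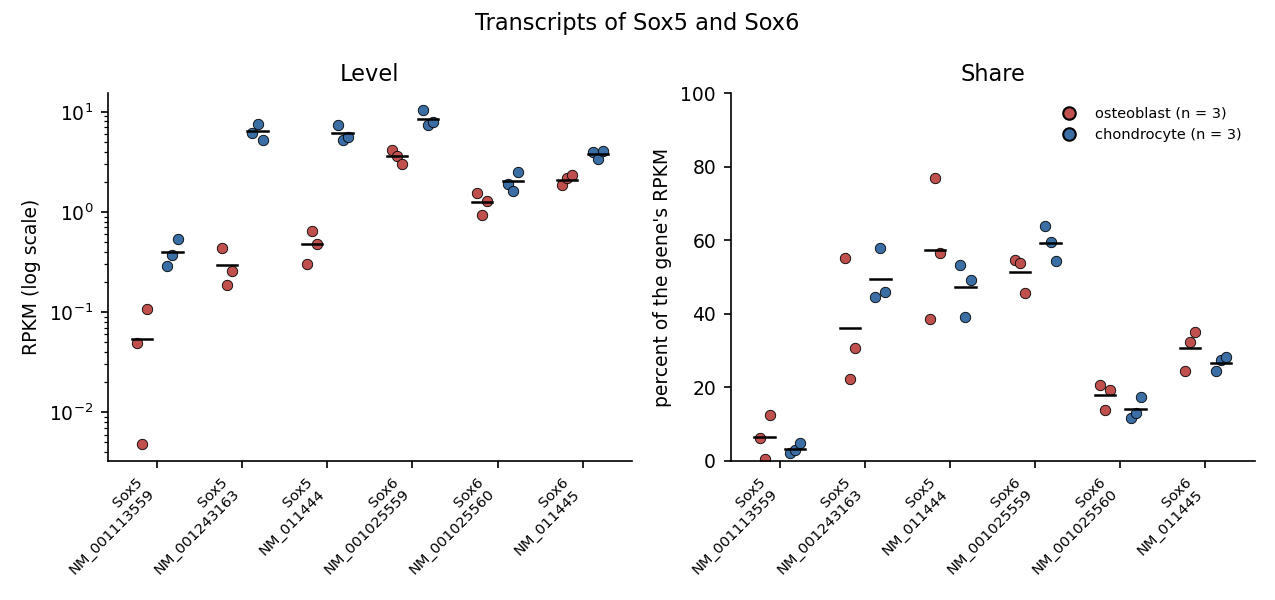
RPKM of the 3 transcripts of Sox5 and of Sox6 on a log axis (left) and their percent of the gene's RPKM (right) in each library, osteoblasts in red and chondrocytes in blue, with a line at the mean of 3 libraries. Levels are lower in osteoblasts for each transcript, while the shares overlap between the cell types.

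The 3 Sox6 start sites are shown because the table measures a transcript from each. The windows come from RefSeq on build GRCm38.p6, run 5′ to 3′ on the minus strand, and hold 250 bases before and 50 bases from the start site. Capitals mark matches to the GC box GGGCGG on either strand, the motif of Sp-family zinc finger factors. The letters AACAAT of the Sox core and TAATTA of homeodomain factors were searched on both strands as well, and neither occurs in any window shown here. Further Sox6 windows, not tied to a measured transcript, are not shown. Among them, the window of start site 115824710 holds 2 matches to AACAAT.

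Sox6 NM_001025559, chr7:116038695-116038994: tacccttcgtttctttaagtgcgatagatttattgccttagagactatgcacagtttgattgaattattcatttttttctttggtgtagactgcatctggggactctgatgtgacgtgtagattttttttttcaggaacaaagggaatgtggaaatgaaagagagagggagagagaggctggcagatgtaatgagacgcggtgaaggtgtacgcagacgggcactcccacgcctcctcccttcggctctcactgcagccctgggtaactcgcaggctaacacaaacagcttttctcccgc

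Sox6 NM_001025560, chr7:116030998-116031297: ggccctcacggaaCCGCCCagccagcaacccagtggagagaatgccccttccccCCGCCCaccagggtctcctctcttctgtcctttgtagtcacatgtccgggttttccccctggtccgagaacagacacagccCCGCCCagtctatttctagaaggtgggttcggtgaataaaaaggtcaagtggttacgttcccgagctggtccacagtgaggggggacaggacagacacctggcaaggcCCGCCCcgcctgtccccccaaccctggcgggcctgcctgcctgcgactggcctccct

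Sox6 NM_011445, chr7:115995037-115995336: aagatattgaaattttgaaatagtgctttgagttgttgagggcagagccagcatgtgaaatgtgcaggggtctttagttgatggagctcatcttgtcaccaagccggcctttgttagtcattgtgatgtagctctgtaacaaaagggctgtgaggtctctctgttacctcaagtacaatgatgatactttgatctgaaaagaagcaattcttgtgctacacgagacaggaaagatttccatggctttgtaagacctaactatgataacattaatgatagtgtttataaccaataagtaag

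The window of NM_001025560, the transcript with the smallest share, holds 4 GC boxes and 63.3% G and C, while those of NM_001025559 and NM_011445 hold none, at 47.0% and 39.0%. A GC box occurs in 35.7% of 32851 promoter windows of the same length, AACAAT in 10.7% and TAATTA in 5.29%. The median window has 52.7% G and C. These matches are letters in a window and were not tested as binding sites.

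Sox4, a SoxC activator with a single-exon gene, was the most abundant of the 8 in osteoblasts. It had 24.5, 26.9 and 22.8 RPKM in osteoblasts and 12.4, 7.11 and 15.8 RPKM in chondrocytes. Each osteoblast library exceeded each chondrocyte library, and the chondrocytes spread more widely. Osteoblasts averaged 24.8 ± 2.08 RPKM of Sox4 and chondrocytes 11.8 ± 4.40 RPKM (SD, n = 3 each), a ratio of 2.10. The log2 difference was 1.07 ± 0.25 (SE; limma, adjusted p = 0.00674), or 0.64 relative to the median, and 82.7% of tested genes had a lower difference. Among chondrocytes the order of Sox4 was that of the fibrous tissue markers (1033, 871 and 3039 RPKM in replicates 1 to 3) and of the myeloid markers (2.36, 1.21 and 6.44 RPKM), and their part in the Sox4 values was not tested. Without chondrocyte replicate 3 the difference was 1.30, and without replicate 2 it was 0.77. In GENCODE M21, 2616 bases of the Sox4 transcript lie opposite the gene Gm26735, from which its reads cannot be told apart without strand.

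Sox12, another SoxC gene of a single exon, had 9.69, 9.55 and 9.75 RPKM in osteoblasts and 6.50, 3.33 and 5.70 RPKM in chondrocytes. It was nearly constant among osteoblast libraries and lowest in chondrocyte replicate 2, like Sox4. The log2 difference was 0.83 ± 0.20 (SE; limma, adjusted p = 0.00712), or 0.39 relative to the median, and 73.4% of tested genes had a lower one. Under median-of-ratios scaling it was 0.39 and no longer called (adjusted p = 0.0735), and likewise under upper quartile scaling at 0.44 (0.0617), while it kept its sign. The ratio of Sox4 to Sox12 overlapped between the cell types, at 2.53, 2.82 and 2.34 in osteoblast libraries and 1.91, 2.14 and 2.78 in chondrocyte libraries.

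Sox11, the SoxC gene best known from neural and mesenchymal progenitors, was low in both cell types. It had 1.22, 1.49 and 1.15 RPKM in osteoblasts and 1.59, 1.80 and 1.27 RPKM in chondrocytes, and the groups overlapped. The log2 difference was -0.16 with a 95% interval of -0.43 to 0.12 (limma, adjusted p = 0.256), or -0.59 relative to the median. It was called lower in osteoblasts under median-of-ratios (-0.46, limma, adjusted p = 0.0239), upper quartile (-0.43, 0.0273) and quantile scaling (-0.62, 0.00898). The ratio of Sox4 to Sox11, which does not move when a library is multiplied by a factor, was 20.1, 18.1 and 19.9 in osteoblast libraries and 7.81, 3.95 and 12.4 in chondrocyte libraries, with no overlap.

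**Figure D3:**
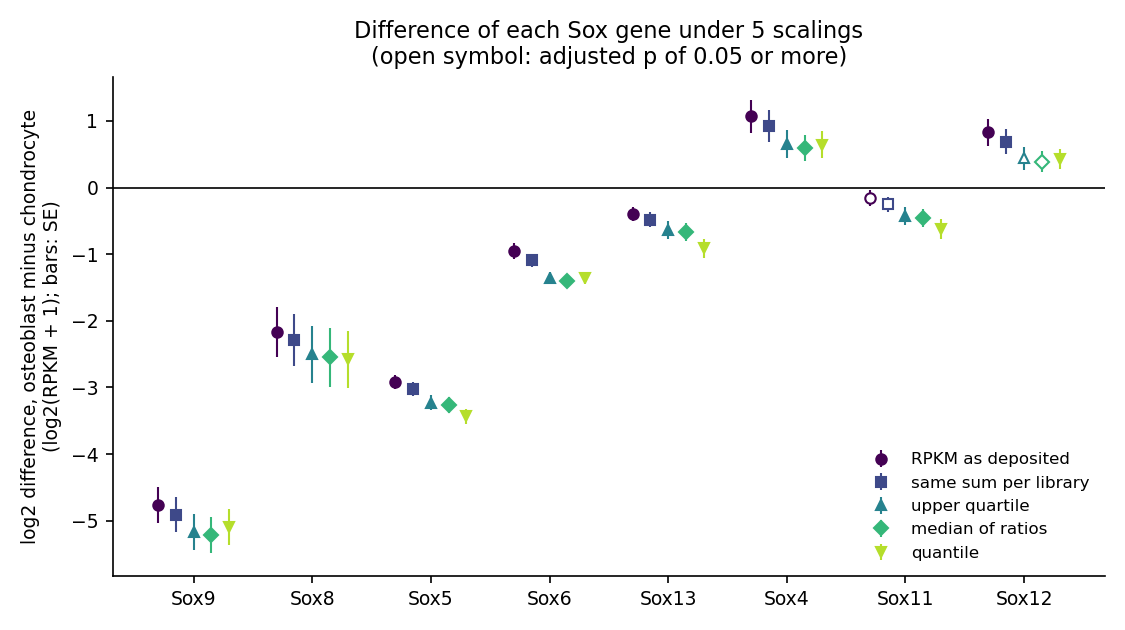
Log2 difference of each Sox gene, osteoblast minus chondrocyte, with its SE, for RPKM as deposited and 4 further scalings of the libraries. Open symbols have an adjusted p of 0.05 or more. Each gene keeps its side of 0 under the 5 scalings, Sox12 moves between 0.39 and 0.83, and Sox11 between -0.62 and -0.16.

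Start-site windows of Sox4 and Sox12, which were higher in osteoblasts, and of Sox8, which was lower, are shown in the same way for comparison. RefSeq windows were found for 7 of the 8 members, all but Sox9. Those of Sox5, Sox11 and Sox13, and the further Sox6 windows, are not tied to a transcript that the table measures and are not shown.

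Sox4 NM_009238, chr13:28953650-28953949: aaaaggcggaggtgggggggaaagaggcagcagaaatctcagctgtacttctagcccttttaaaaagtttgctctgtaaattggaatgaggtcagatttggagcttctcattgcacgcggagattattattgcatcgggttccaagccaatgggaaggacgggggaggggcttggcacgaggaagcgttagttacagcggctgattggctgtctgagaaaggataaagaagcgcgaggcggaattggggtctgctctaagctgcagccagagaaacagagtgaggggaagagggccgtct

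Sox12 NM_011438, chr2:152397997-152398296: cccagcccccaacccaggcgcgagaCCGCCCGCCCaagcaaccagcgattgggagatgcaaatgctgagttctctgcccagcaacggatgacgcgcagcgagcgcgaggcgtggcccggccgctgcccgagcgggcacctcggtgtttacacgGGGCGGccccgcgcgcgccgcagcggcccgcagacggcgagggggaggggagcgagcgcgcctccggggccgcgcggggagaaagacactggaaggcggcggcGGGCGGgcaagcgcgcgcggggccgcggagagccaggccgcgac

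Sox8 NM_011447, chr17:25570637-25570936: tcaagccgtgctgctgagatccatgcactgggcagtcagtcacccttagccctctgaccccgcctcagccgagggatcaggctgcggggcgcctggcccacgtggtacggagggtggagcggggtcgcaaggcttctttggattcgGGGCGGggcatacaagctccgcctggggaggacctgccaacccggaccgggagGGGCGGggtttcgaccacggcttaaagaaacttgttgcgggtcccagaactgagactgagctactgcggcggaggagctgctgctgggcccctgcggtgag

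All lie on the minus strand. The Sox12 window holds 4 GC boxes, with an overlapping pair near its 5′ end, and has 76.7% G and C and 47 CpG sites, while that of Sox4 holds none, at 52.0% and 12 CpG sites. The Sox8 window holds 2 GC boxes, at 66.3% and 21 CpG sites. The median of all windows is 7 CpG sites. The pair that was higher in osteoblasts was thus unlike in base composition.

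RPKM is per length, so the levels of the 8 genes can be ordered within a cell type. In osteoblasts the order from high to low was Sox4, Sox12, Sox6, Sox9, Sox8, Sox11, Sox13 and Sox5. The ranges of neighbours over 3 libraries overlapped there for Sox8 and Sox11 alone. In chondrocytes the order was Sox9, Sox6, Sox5, Sox4, Sox8, Sox12, Sox11 and Sox13. There Sox9 stood clear of all others, Sox6, Sox5, Sox4 and Sox8 each overlapped the next in the order, as did Sox11. The places of Sox6 and Sox5 depend on adding up their transcripts. By its highest transcript Sox6 averaged 3.58 RPKM in osteoblasts, under Sox9. In chondrocytes the highest transcripts of Sox6 and Sox5 averaged 8.54 and 6.36 RPKM, under Sox4 and Sox8.

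Summed SoxE RPKM was 5.76 ± 1.65 in osteoblasts against 155 ± 44.5 in chondrocytes, summed SoxD RPKM 8.63 ± 0.458 against 28.7 ± 2.38, and summed SoxC RPKM 35.7 ± 2.15 against 18.5 ± 5.56 (SD, n = 3 each). Of the RPKM of the 8 genes, SoxC took 71.1%, 70.4% and 72.6% in osteoblast libraries and 8.07%, 6.55% and 13.9% in chondrocyte libraries. SoxE took 10.6%, 14.1% and 9.49% in osteoblast libraries and 79.6%, 78.8% and 69.5% in chondrocyte libraries. The SoxD share overlapped, at 18.4%, 15.6% and 18.0% in osteoblast libraries and 12.4%, 14.6% and 16.6% in chondrocyte libraries. These shares do not move when a library is multiplied by a factor. They are a description of the 8 genes chosen here and carry no test. Chondrocyte replicate 3, with the most fibrous tissue RNA, had the highest SoxC share and the lowest SoxE share of its group.

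**Figure D4:**
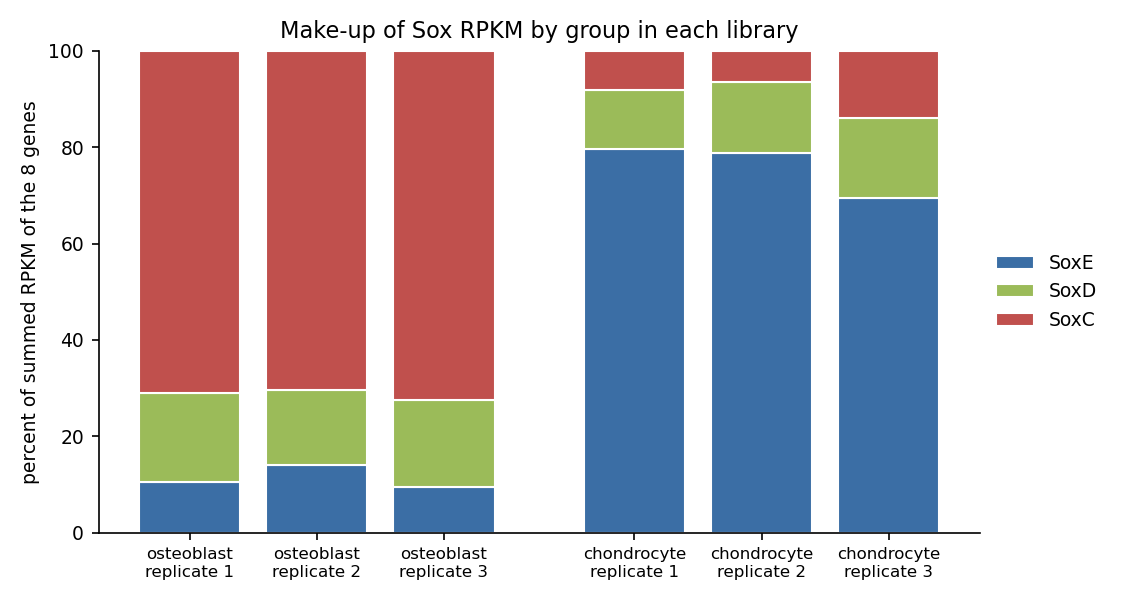
Percent of the summed RPKM of the 8 genes taken by SoxE (Sox8, Sox9), SoxD (Sox5, Sox6, Sox13) and SoxC (Sox4, Sox11, Sox12) in each library, as stacked bars, osteoblasts left and chondrocytes right. SoxC fills 70.4% to 72.6% of the osteoblast bars and 6.55% to 13.9% of the chondrocyte bars.

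The other 12 Sox genes listed, Sry included, were under 1 RPKM in every library and were not tested. Sox10, the third SoxE gene and a factor of neural crest and glia, was listed at 0.0001 RPKM (the floor of the table, no reads), 0.0547 and 0.109 in osteoblasts and at 0.132, 0.875 and 0.277 RPKM in chondrocytes. Its highest value, in chondrocyte replicate 2, stood on an estimated 79.9 reads, and Sox8 was also highest in that library. Foxd3, another neural crest factor, was at most 0.0376 RPKM in any library. Sox18, an endothelial factor, had 0.819, 0.897 and 0.457 RPKM in osteoblasts and 0.312, 0.165 and 0.344 RPKM in chondrocytes, whereas its SoxF relative Sox7 had 0.0266, 0.118 and 0.0001 RPKM in osteoblasts and 0.455, 0.209 and 0.528 RPKM in chondrocytes. The sum of the endothelial markers had a higher mean in chondrocytes, as had Sox7, but its groups overlapped. Among the single markers Tek had the higher mean in osteoblasts (0.122 against 0.0944 RPKM), and the others in chondrocytes. The part of these markers in either value was not tested. Sox1 and Sry were at the floor in every library.

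Genes known from the mouse as direct targets of Sox9, Sox5 and Sox6 in cartilage were mostly lower in osteoblasts. Of 16 such genes, all tested, 15 were called lower, against 13.5% of all tested genes, 0 were called higher, against 55.5%, and Matn4 was not called, with a median log2 difference of -4.61 against 0.43 over all tested genes (limma). Col2a1, the main collagen of cartilage, had 23.7, 35.5 and 33.1 RPKM in osteoblasts and 37318, 48028 and 26727 RPKM in chondrocytes (-10.18). Comp, a matrix glycoprotein (-9.01), Col9a2, a collagen on the surface of cartilage fibrils (-9.01), and Lect1, which encodes chondromodulin (-8.94), followed it. Matn4, a matrilin, had 35.0, 41.0 and 21.8 RPKM in osteoblasts and 36.2, 37.0 and 56.3 RPKM in chondrocytes (log2 difference -0.41 with a 95% interval of -1.03 to 0.20). It was called lower under median-of-ratios (-0.91), upper quartile (-0.85) and quantile scaling (-0.84). Chondrocyte replicate 1, highest in Sox9, was not the highest in Col2a1, which peaked in replicate 2. All 6 chondrocyte markers are also in this list, and Matn1 and Matn3 reached the filter through chondrocyte libraries alone, which builds in their direction.

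Partners and regulators of Sox9 were called in both directions. Of 28 names 24 were tested (Kat5 was entered under a second name, Tip60, which the table does not hold), and 10 were higher in osteoblasts, against 55.5% of all tested genes, 9 were lower, against 13.5%, and 5 were not called, with a median log2 difference of -0.05 (limma). Under median-of-ratios scaling 5 were higher in osteoblasts and 13 were lower. Twist1, a factor of skull mesenchyme known to restrain Sox9, had 121, 117 and 89.5 RPKM in osteoblasts and 6.36, 4.28 and 14.1 RPKM in chondrocytes (3.70). Runx2, the factor of osteoblast commitment (1.84), Prkaca, a catalytic subunit of the kinase that phosphorylates Sox9 (1.63), and Scx, a tendon factor that can act with Sox9 (1.39), were also higher in osteoblasts. The Scx call ended under median-of-ratios scaling (0.90; limma, adjusted p = 0.0525).

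On the chondrocyte side were Wwp2, a ubiquitin ligase that binds Sox9 and whose gene hosts a cartilage microRNA, at 21.2, 21.5 and 21.2 RPKM in osteoblasts and 296, 227 and 219 RPKM in chondrocytes (-3.46), and Trps1, a GATA-type repressor of the growth plate (-1.86). The forkhead factors Foxa3 (-2.76) and Foxa2 (-2.22) were called lower in osteoblasts too, but both passed the filter through chondrocyte libraries alone, which builds in their direction. Kat5, an acetyltransferase, had 11.3, 10.4 and 9.998 RPKM in osteoblasts and 11.2, 9.57 and 11.1 RPKM in chondrocytes, and the Mediator subunit Med12 differed by -0.23 with a 95% interval of -0.51 to 0.05. Neither was called, but both were called lower in osteoblasts under median-of-ratios scaling (-0.47 and -0.69).

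Genes known downstream of the SoxC factors in mouse cells were mostly called higher in osteoblasts, as were most tested genes. Of 12, 10 were tested, of which 8 were higher in osteoblasts, against 55.5% of all tested genes, and 2 were lower, against 13.5%, with a median log2 difference of 1.88 (limma). Tubb3 passed the filter through osteoblast libraries alone and Gdf5 through chondrocyte libraries alone, which builds in their directions. Tubb3, a tubulin of neurons, had 6.86, 8.65 and 6.38 RPKM in osteoblasts and 0.0173, 0.0518 and 0.0485 RPKM in chondrocytes (2.99). Dbn1, the actin-binding drebrin (2.80), and Tead2, a partner of Yap in Hippo signalling that Sox4 and Sox11 activate in mouse mesenchyme (2.57), were also higher. Sp7 (5.66) is in the list too, but the labels tie the sorted fluorescent protein to it. The lists share genes: Runx2 counts here and among the Sox9 partners, and Wwp2 among those partners and the cartilage targets. Gdf5, a growth factor of joints, was lower in osteoblasts, at 0.909, 0.627 and 0.815 against 9.07, 9.15 and 9.24 RPKM (-2.51), as was Lef1, a Wnt effector (-0.54).

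**Figure D5:**
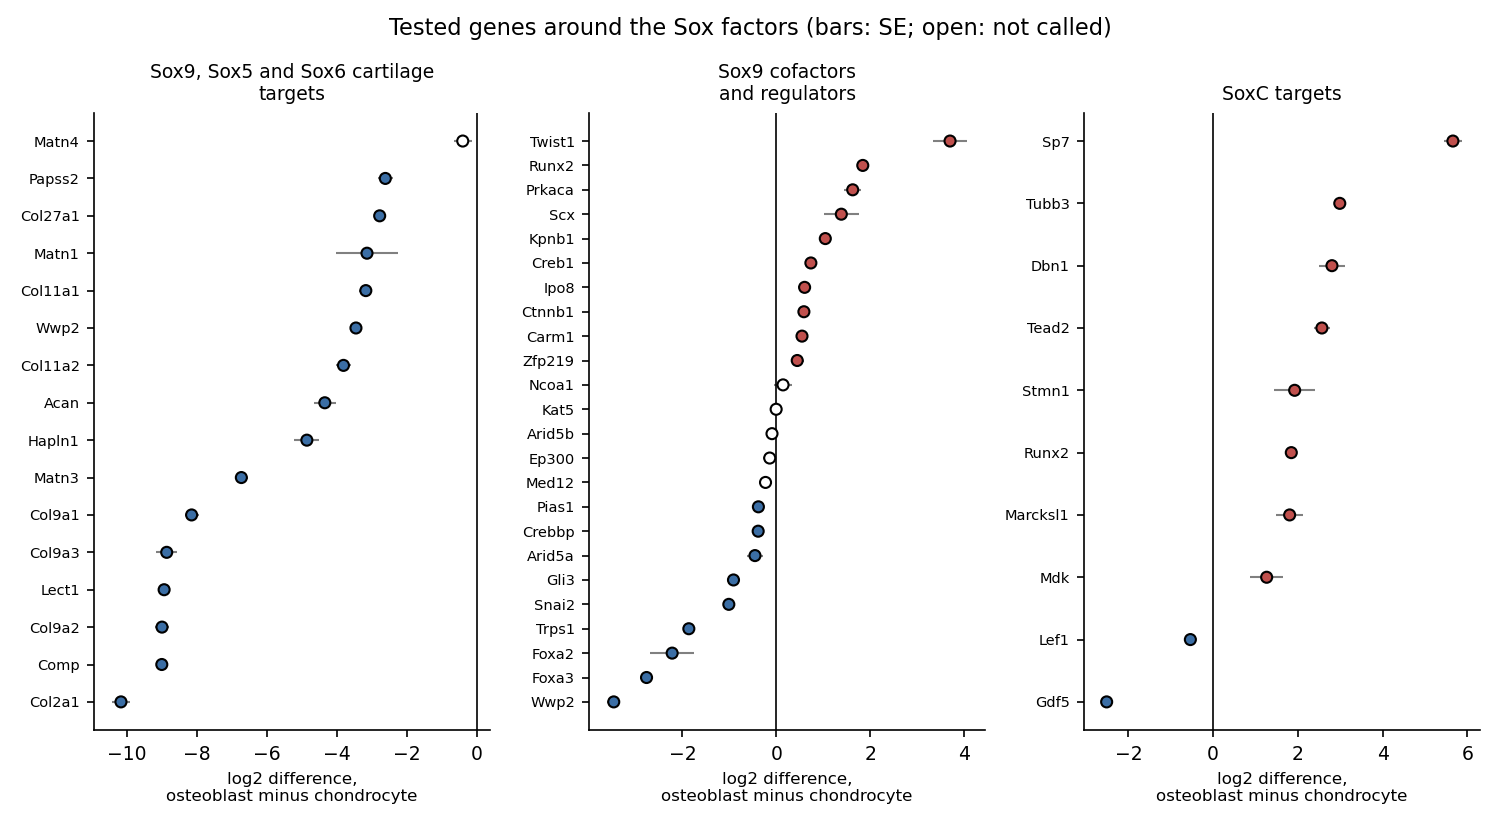
Log2 difference, osteoblast minus chondrocyte, with its SE, for the tested genes of 3 lists: cartilage targets of Sox9, Sox5 and Sox6 (left), partners and regulators of Sox9 (middle) and genes downstream of SoxC (right). Red points were called higher in osteoblasts, blue lower, and open points were not called. The targets on the left lie below 0, from -10.18 to -0.41, while the middle list lies on both sides.

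The genes whose pattern over the 6 libraries lay closest to a Sox gene were found by the root mean square distance between log2(RPKM + 1) profiles, each centred on its own mean. They are a description of the same 6 libraries and carry no test. For Sox9 they were Sparcl1, Fam101a and Sim2, at distances of 0.21, 0.23 and 0.32. Sparcl1, a matricellular protein, had 1.59, 3.80 and 0.807 RPKM in osteoblasts and 85.6, 59.2 and 54.4 RPKM in chondrocytes, with the same order of libraries as Sox9. For Sox5 they were Adamts3, a proteinase that trims procollagen, Fgfrl1, a decoy receptor for FGFs, and Foxa3, at 0.036, 0.071 and 0.097. Pld2, Chst2 and Kazn lay closest to Sox4, at 0.043, 0.053 and 0.056, and Ccdc77, Smc5 and Il18 to Sox11, at 0.025, 0.040 and 0.043. Distances depend on the size of a gene's own change, so those of one Sox gene are not comparable with those of another.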

How the data were processed

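The authors deposited RPKM values of 31055 RefSeq transcripts in 6 libraries (TruSeq kit with modifications, per the labels' protocols). Alignment used TopHat2 2.0.8 and build mm9, per the submitters' processing notes. The sources used here do not name the counting program. Each value carries 0.0001, the floor at which a transcript without reads is listed.

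Transcript RPKM were added up per symbol. Genes with at least 1 RPKM in at least 3 libraries entered a two-sided limma test (version 3.58.1, R 4.3.3) of log2(RPKM + 1) using its trend and robust options, and so did transcripts. Adding 1 makes differences of low genes smaller than their ratios. Fold values are ratios of mean RPKM. Of low values in genes with 1 transcript, 58.8% to 60.7% came within 0.05 of a whole read by GENCODE M21 lengths, while 10% would by chance. Since totals were fitted to those same values, estimated reads are approximate and speak of counting error only.

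Members, gene lists and tests were chosen with earlier results of these data known. Named genes are the members, other Sox genes, up to 4 called genes each way and 2 uncalled genes of highest level per list, and the 3 nearest patterns of 4 members. Matn1 and the library values of Foxa2, Foxa3 and Comp were singled out after they were seen. Alternatives changed the pseudocount, filter, scaling, moderation, block, weights, libraries or transcripts. A limma voom fit on estimated reads was added after seeing the data. Some marker genes are not reported here.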

Additional observations from a re-analysis of the deposited data

How the results depend on the processing

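Sox9, Sox8, Sox5, Sox6, Sox13 and Sox4 kept direction and call under every alternative in which they were tested, the added voom fit included, with log2 differences of -5.22 to -3.97, -2.79 to -1.25, -3.92 to -1.61, -1.41 to -0.69, -0.91 to -0.14 and 0.59 to 1.30, while Sox12 and Sox11 depended on the scaling as given above. Sox11 and Sox13 were not tested at a mean RPKM of at least 5. Over all genes 6224 were called higher and 1512 lower in osteoblasts, against 3413 and 3471 under median-of-ratios scaling, 3706 and 3184 under upper quartile scaling, 3597 and 3456 under quantile normalization, and 4092 and 885 at a mean RPKM of at least 5, where fewer genes are tested. Under both median-of-ratios and upper quartile scaling 1 Sox gene and 1 Sox transcript were called higher, and of the Sox9 partners 5 and 6 were. At a mean RPKM of at least 5 the SoxC target list had 0 lower and the Sox transcripts 3 lower. Leaving out 1 library gave 5300 to 6319 higher and 1206 to 1898 lower, 2 higher and 5 lower Sox genes each time, and 6 to 8 lower Sox transcripts. Kat5, not called, changed sign there (-0.069 to 0.034). The transcript call of Sox13 ended without any one osteoblast library (adjusted p 0.0507 to 0.0591).

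The SoxD sum was 7.19 RPKM in osteoblasts and 34.1 RPKM in chondrocytes under median-of-ratios scaling, 8.16 RPKM in osteoblasts at the same sum per library, and 4.74 and 16.4 RPKM with the highest transcript per gene, since Sox5 and Sox6 have several. That choice gave SoxD shares of 10.3% in osteoblasts and 8.83% in chondrocytes and a SoxC share of 77.4% in osteoblasts. The SoxC sum was 29.7 RPKM in osteoblasts under median-of-ratios scaling.

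Same-numbered libraries did not deviate together (correlations of 0.079, 0.010 and -0.155 for numbers 1 to 3). No osteoblast library correlated best with the chondrocyte library of its own number, and of the chondrocyte libraries only replicate 1 correlated best with its own. With the replicate block 5892 genes were higher and 1376 lower, and 2 and 5 Sox genes.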

Other observations

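Sox2ot, a long noncoding RNA whose gene contains Sox2, was at the floor in every osteoblast library and had 0.240, 0.0900 and 0.497 RPKM in chondrocytes, an estimated 24, 9 and 52.9 reads. Sox2 itself had 0.0001, 0.0122 and 0.0001 RPKM in osteoblasts and 0.0122, 0.0484 and 0.0114 RPKM in chondrocytes. That is an estimated 3.3 reads at most in any library, too few to compare its order with that of Sox2ot. Among Sox9 partners too low to test, Nkx3-2, a repressor of chondrocyte maturation, had 0.0001, 0.0620 and 0.129 RPKM in osteoblasts and 0.558, 1.59 and 0.213 RPKM in chondrocytes, highest in replicate 2 like Sox8. Ppargc1a, a coactivator of Sox9, had 0.134, 0.133 and 0.114 RPKM in osteoblasts and 1.25, 0.656 and 1.37 RPKM in chondrocytes.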
